A study of Homo sapiens with 3 samples.

Results

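The miR-320 family (hsa-miR-320a, hsa-miR-320b, hsa-miR-320c and hsa-miR-320d) and hsa-miR-484 are miRNAs whose precursors are thought to reach Dicer without a cut by Drosha. These 5 of the 851 human miRNA names on the array were taken by name, whatever their signal, to ask whether they were present in the Ago2 complex and how they differed between the arrays. RNA was recovered by immunoprecipitation of Argonaute 2 (Ago2-IP) from Hep G2, a liver cancer cell line of human origin, and hybridised to Agilent human miRNA arrays in a single colour. The non-treated (NT) cells received no mimic. The miR-195 cells and the miR-497 cells were transfected with 5 nM of the respective synthetic duplex (mimic), and their Ago2-IP was done 24 hours later. Each group had 1 array and the 3 arrays lay on 1 slide, so the differences below lack replicate arrays and none was tested. No control mimic, total RNA or control immunoprecipitate was analysed here. An effect of a mimic and an effect of transfection itself therefore cannot be told apart, and signal shows presence in the Ago2-IP fraction, not enrichment in it.

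In the canonical pathway, Drosha with its partner DGCR8 cuts a hairpin out of the primary transcript in the nucleus, Exportin-5 carries the hairpin to the cytoplasm, Dicer removes its loop and a strand of the resulting duplex enters an Argonaute protein. The hairpin of miR-320a starts at the transcription start site itself and carries a cap at its 5′ end, so no Drosha cut is needed, and the cap favours loading of its 3′ arm. miR-484 likewise depends on Dicer and not on Drosha and DGCR8. The evidence for this route is firmest for miR-320a and miR-484, while miR-320b, miR-320c and miR-320d are close paralogues of miR-320a. Other miRNAs skip Drosha as mirtrons, short introns released by splicing, and miR-451 is cut by Drosha and then by Ago2 without Dicer.

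The RefSeq miRNA table used here (GRCh38.p14) gave a mature sequence for 4 of the 5 members, all but hsa-miR-320a. They are printed 5′ to 3′ with the seed, bases 2 to 8, in capitals, to show how little separates the family members that the probes have to tell apart.
hsa-miR-320b: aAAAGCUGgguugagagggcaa
hsa-miR-320c: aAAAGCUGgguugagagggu
hsa-miR-320d: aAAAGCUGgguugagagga
hsa-miR-484: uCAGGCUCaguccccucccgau
The miR-320 members shown share the seed AAAGCUG and differ only toward the 3′ end. From the 5′ end, miR-320b and miR-320c were identical over 19 bases, and miR-320d was identical to each of them over 18 bases. The lengths were 22 bases for miR-320b, 20 for miR-320c and 19 for miR-320d. This seed was carried by 4 of the names listed there, the other being hsa-miR-4429, which was not on the array. miR-484 carried the unrelated seed CAGGCUC and had no base in common with the miR-320 sequences from the 5′ end. Its GC content was 63.6%, against 50% for miR-320b and miR-320c, 47.4% for miR-320d and a median of 52.2% over 2370 mature names. Near-identical targets may share signal between probes. This cross-hybridisation was not tested, and the 4 miR-320 names may not be independent measurements.

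The arm that holds the listed mature strand differs between the gene groups. The hairpins of a miR-320 gene and of miR-484 show this, with the mature strand in capitals. Which arm enters Ago2 was not tested. MIR320B1 lies at chr1:116671746-116671817 on the + strand and MIR484 at chr16:15643294-15643372 on the + strand.
MIR320B1: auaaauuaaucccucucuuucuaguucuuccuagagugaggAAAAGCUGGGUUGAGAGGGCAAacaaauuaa
MIR484: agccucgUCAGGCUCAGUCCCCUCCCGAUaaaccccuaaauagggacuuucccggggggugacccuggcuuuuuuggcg
In MIR320B1 the mature strand occupied bases 42 to 63 of a hairpin of 72 bases, the 3p arm, and it lay on the 3p arm in all 6 listed genes of miR-320b, miR-320c and miR-320d. In MIR484 it occupied bases 8 to 29 of 79, the 5p arm. Predicted folds had 19 base pairs for MIR320B1, 19 to 25 over the 6 miR-320 genes and 26 for MIR484. The median over 1562 human hairpins was 29 and the quartiles were 24 and 33. Of the 6 miR-320 genes, MIR320B2 lies within NVL, MIR320C1 within ABHD3 and MIR320C2 within OSBPL1A, and no enclosing gene was listed for the others or for MIR484.

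The arrays differed in overall brightness. The 75th percentile of signal over the 183 probes detected on every array was 827 intensity units on the NT array, 778 on that of miR-195 and 263 on that of miR-497, whereas the geometric mean of the spike-in controls was 1621, 1284 and 1275. Of the 851 human names, 168, 153 and 121 were well above background in the same order. A miRNA was called well above background, or detected, when over 50% of the usable spots of at least 1 of its probes carried that flag. Of 4 hepatocyte-lineage markers, miR-192, miR-194 and miR-215 were detected on every array, and miR-122, the defining hepatocyte miRNA, on none. Of 9 markers of blood, muscle, neurons and vessel wall, only miR-142-3p, a miRNA of blood cells, was detected, on every array, at 1521, 1244 and 397 units.

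The 4 miR-320 members were detected on all 3 arrays and miR-484 on the NT and miR-195 arrays only. Each value below is a sum over the 2 probes of a name, with the SD between replicate spots of the same array, which covers technical error within that array. Signals of different names were read by different probes and are not compared.

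hsa-miR-320a gave 392 ± 34.2 units on the NT array, 413 ± 32.9 after miR-195 and 115 ± 5.04 after miR-497. The NT and miR-195 values lay within the spot SD of each other, and the miR-497 value was lower than both. hsa-miR-320b gave 1345 ± 56.0, 1542 ± 78.4 and 500 ± 39.9 units in the same order. hsa-miR-320c gave 1464 ± 54.4, 1647 ± 55.2 and 521 ± 25.03 units. hsa-miR-320d gave 2690 ± 56.8, 3078 ± 52.6 and 1028 ± 55.6 units. In each of these 3 paralogues the miR-195 array was highest and the miR-497 array lowest before any scaling.

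hsa-miR-484, the member with the unrelated sequence, was close to the detection limit. Its signal was 28.0 ± 4.81 units on the NT array and 32.5 ± 7.63 after miR-195. After miR-497 it read 8.25 units with 0 of 15 spots well above background. For comparison, the 95th percentile of the negative-control spots was 9.89, 10.2 and 11.4 units on these arrays. Only its first probe was detected, by 8 of 8 spots on the NT array and by 5 of 7 on the miR-195 array. After each array was divided by its 75th percentile, its log2 value was -4.88 on the NT array and -4.58 on the miR-195 array, both below the lowest value of any miRNA detected after miR-497, which was -3.78. On this scale a level like that on the other arrays lay under the detection limit after miR-497. Without scaling it did not, since the lowest detected miRNA there read 19.1 units. Lower miR-484 and a dimmer array cannot be told apart here, and no fold is given.

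**Figure D1:**
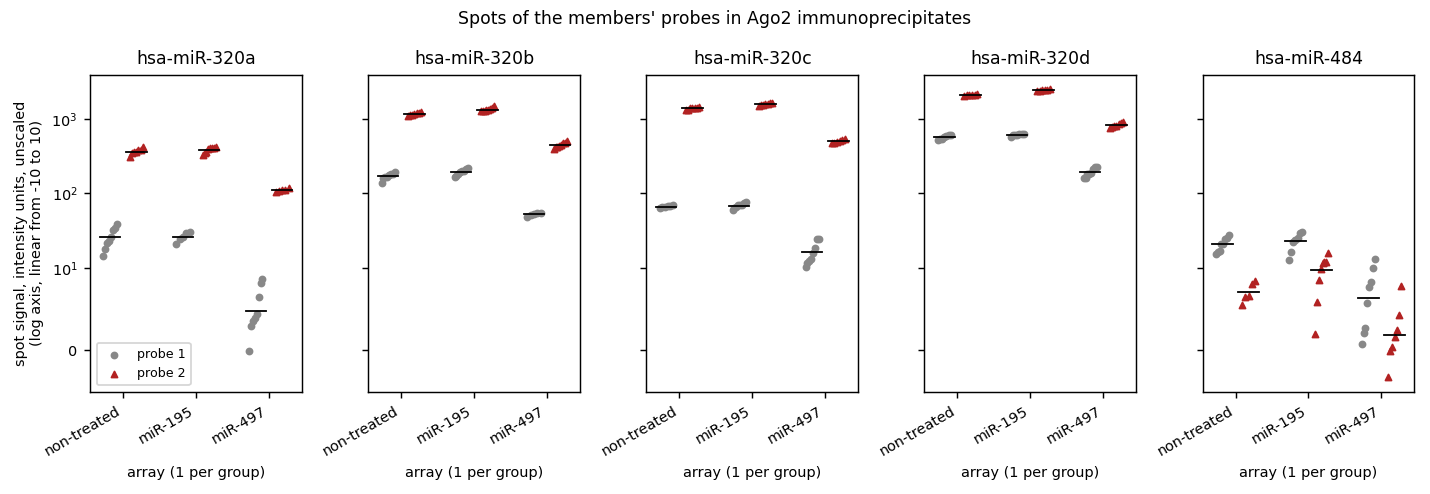
Signal of every usable spot of the 2 probes of each member (vertical axis, unscaled intensity units, log axis that is linear between -10 and 10) on the NT, miR-195 and miR-497 arrays. Points are spots of 1 array and black bars their mean. The miR-320 spots are lowest in the miR-497 column, and the miR-484 spots reach at most 13.3 units there.

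The probe pairs of the family were unequal. The brighter probe of each miR-320 member was detected on all arrays. On the miR-497 array the dimmer probe of miR-320a had 0 of 8 spots well above background and that of miR-320c had 3 of 8, so neither counted as detected. The dimmer probe of miR-320a read 26.1 units on the NT array, 26.3 after miR-195 and 4.77 after miR-497. The miR-497 value of miR-320a thus rested on its second probe, which read 366, 386 and 111 units.

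Differences were then taken after each array was divided by its own 75th percentile, on the log2 scale. The comparison of the miR-195 array with the NT array asked whether the members moved in Ago2 when miR-195 was supplied in excess. None of the 5 members reached a 2-fold difference, while 3.4% of the 147 human miRNAs measured on both arrays did. The scaled log2 difference was 0.16 for miR-320a (spot SD 0.17), a 1.12-fold higher value and within its own error. It was 0.28 for miR-320b (spot SD 0.095) and 0.26 for miR-320c (spot SD 0.072), or 1.22-fold and 1.19-fold higher. For miR-320d it was 0.28 (spot SD 0.039), again 1.22-fold higher. These 3 paralogues were higher on the miR-195 array by more than the spot SD. Other miRNAs also exceeded their own spot SD, in both directions. Their share was not counted, so this does not set the paralogues apart. For miR-484 the difference was 0.30, below its spot SD of 0.42. The 5 members had a median of 0.28, and all 147 miRNAs a median of -0.01 with quartiles at -0.19 and 0.20. Except for miR-320a, the members lay above the upper quartile, at ranks 16 to 27 from the highest of 147. The median was 0.06 for the 73 miRNAs of higher signal and -0.06 for the 74 of lower signal. Against the brighter miRNAs, which included 4 members, the median of those members was higher by 0.21. Against all miRNAs that of the 5 members was higher by 0.29. Without scaling, the members were 0.07 to 0.22 log2 units higher and none was lower, whereas 90 of the 147 miRNAs were lower. The 9 member probes detected on both arrays all read higher on the miR-195 array, by 0.10 to 0.30 after scaling. The gap between members exceeded its spot SD in 0 of 10 pairs, and the widest, between miR-320a and miR-484, was 0.14 log2 units.

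In the comparison of the miR-497 array with the NT array, the raw signal of the family was lower by 2.62-fold to 3.40-fold. The unscaled log2 difference was -1.76 for miR-320a, -1.43 for miR-320b, -1.49 for miR-320c and -1.39 for miR-320d. The array as a whole was dimmer by the same order: 116 of 118 miRNAs were lower, with a median of -1.62. After scaling, 0 of the 4 measured members differed by 2-fold, against 3.39% of the 118 miRNAs. miR-320a was at -0.11 (spot SD 0.14). miR-320b was at 0.22 (spot SD 0.13), miR-320c at 0.16 (spot SD 0.088) and miR-320d at 0.26 (spot SD 0.084). The paralogues b, c and d were thus above the NT array by more than the spot SD and miR-320a was not. Other miRNAs exceeded theirs too, in both directions, and their share was again not counted. The median of the 4 members was 0.19, against 0.03 for all 118 miRNAs, whose quartiles were -0.12 and 0.26. Of the 4 members, 3 lay between those quartiles, so the family as a whole stood close to the other miRNAs on this array.

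The position of miR-320a relative to its paralogues in this comparison turned with the normexp correction, which also added 50 units to every spot. With the background as subtracted by the scanner software, its scaled difference minus that of miR-320b was -0.34 log2 units, minus that of miR-320c -0.27 and minus that of miR-320d -0.38, each more than the spot SD, while b, c and d lay within the spot SD of each other. With the normexp background, miR-320a was at 0.33, above miR-320b at 0.20, miR-320c at 0.14 and miR-320d at 0.17. All 4 members lay below the median of all 118 miRNAs there, which was 0.46. A constant of 50 units is larger relative to dim signals and on the dimmer array. Its part in these values was not separated from that of the background estimate. The brightness of a probe moved with its difference: the dimmer probe of miR-320b gave -0.06 and its brighter probe 0.26, and the dimmer probe of miR-320d gave 0.08 and its brighter probe 0.31. The same direction was seen over all miRNAs, with a median of 0.16 for the 59 of higher signal and -0.05 for the 59 of lower signal. The part of probe brightness in the values of miR-320a was not tested. Against the 59 brighter miRNAs, which included the 4 members, the members' median exceeded that of all by 0.03 rather than 0.16.

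**Figure D2:**
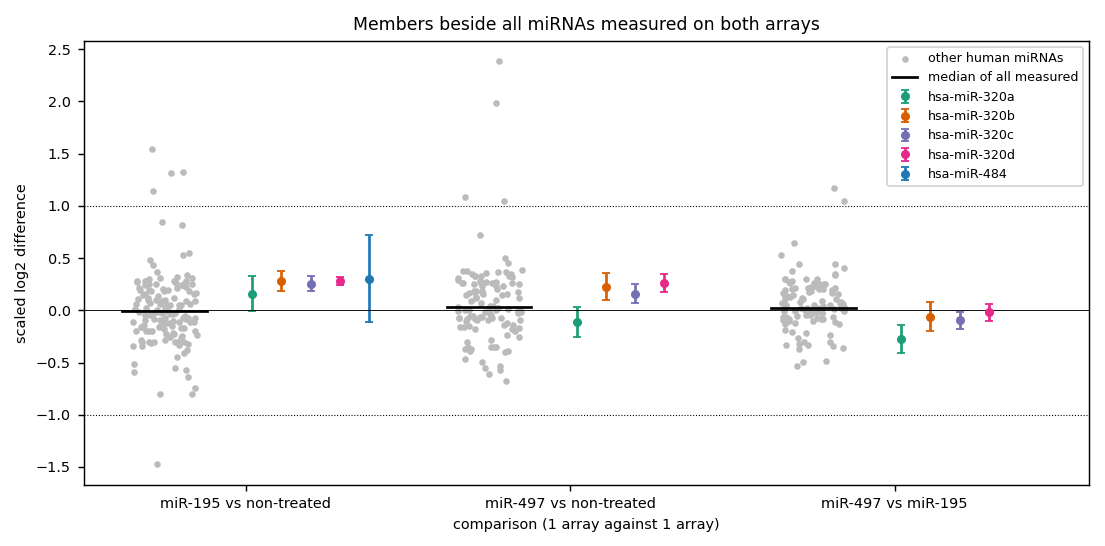
Scaled log2 difference (vertical axis) in each of the 3 comparisons of 1 array with another. Coloured points are the members with the SD between spots, grey points the other human miRNAs detected on both arrays, black lines their common median, and dotted lines mark 2-fold. All members lie inside the dotted lines; miR-484 is drawn only for miR-195 against NT, where its error bar spans 0.

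**Figure D3:**
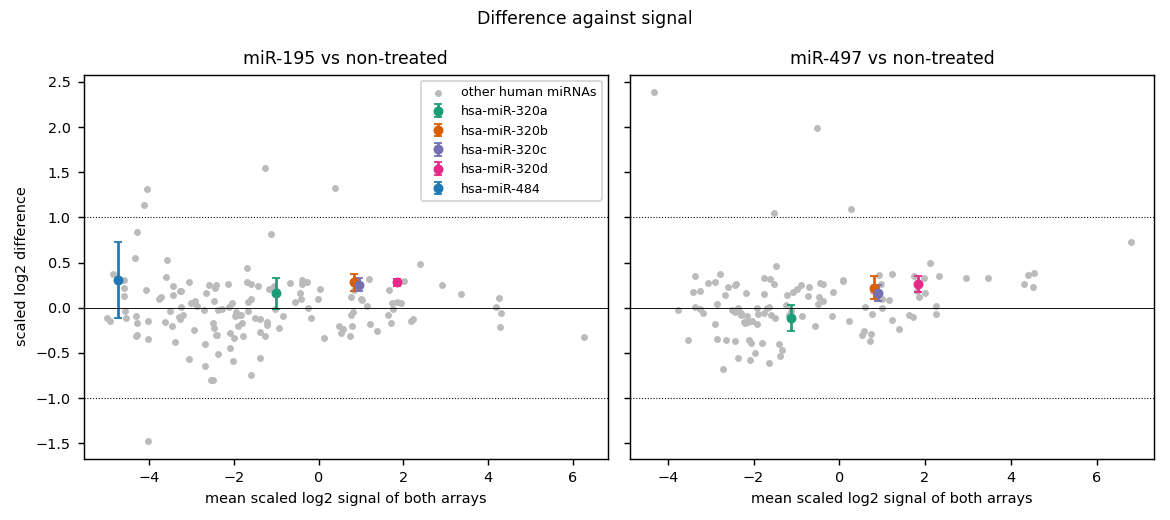
Scaled log2 difference (vertical axis) against the mean scaled log2 signal of both arrays (horizontal axis), for the miR-195 (left) and miR-497 (right) arrays against the NT array. Coloured points are the members with the SD between spots and grey points the other human miRNAs. miR-484 lies at the dim end on the left, and miR-320b, miR-320c and miR-320d lie to the right of miR-320a in both panels.

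Set directly against each other, the miR-497 and miR-195 arrays gave scaled differences of -0.27 for miR-320a (spot SD 0.13), -0.06 for miR-320b (spot SD 0.14), -0.10 for miR-320c (spot SD 0.085) and -0.02 for miR-320d (spot SD 0.082). None reached 2-fold, against 1.71% of 117 miRNAs. The members' median was -0.08 and that of all 117 miRNAs 0.02. miR-320a ranked 106 of 117 from the highest. With the normexp background its value was 0.19, while the other 3 members were at -0.07 to -0.09. The median of all 117 miRNAs rose to 0.46 there, so miR-320a remained below it. Both comparisons with the NT array share that array, so the values of a member in them are not independent.

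The size and sign of these values depended on how the arrays were brought to a common level. With the same percentile taken over every non-control probe, detected or not, all 5 members had a negative sign for miR-195 against NT, from -0.23 to -0.38, and it moved the median of all miRNAs by -0.54. The spike-in controls gave a members' median of 0.53 in that comparison and of -1.11 for miR-497 against NT. Under any single factor per array the members kept the same distance from the median of all miRNAs, 0.29 for miR-195 against NT, 0.16 for miR-497 against NT and -0.10 for miR-497 against miR-195.

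**Figure D4:**
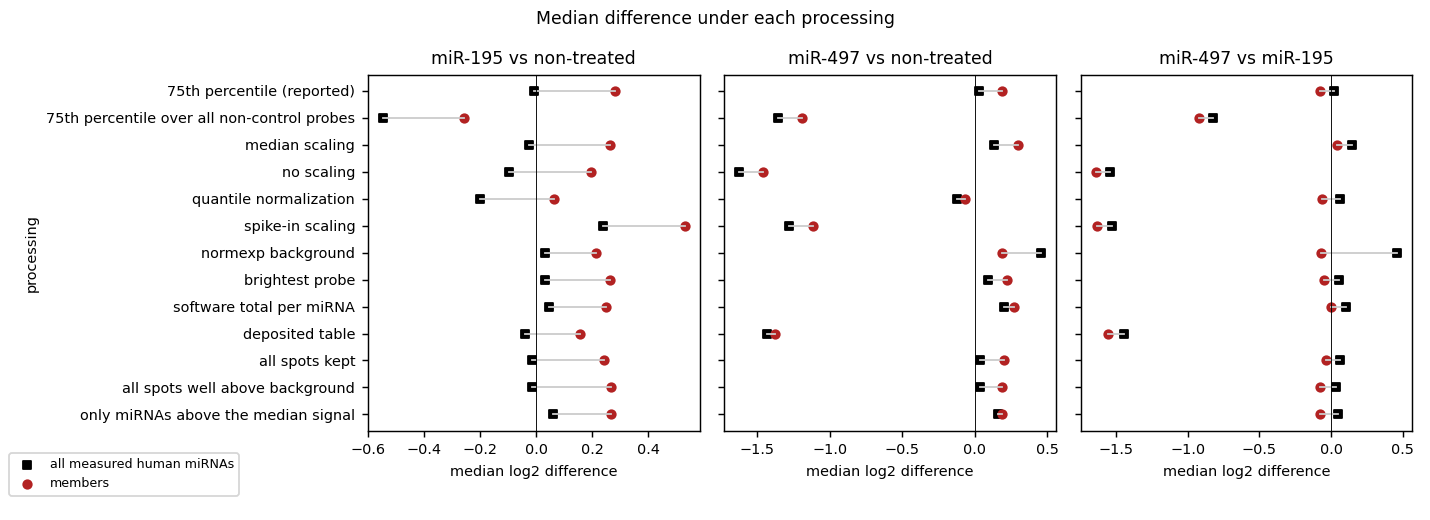
Median log2 difference (horizontal axis, a separate range in each panel) of the members (red) and of all measured human miRNAs (black) under each processing (rows), for the 3 comparisons. Under the settings that divide each array by 1 factor both points shift together; in the left panel the members lie to the right of all miRNAs in every row.

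The signal that the scanner software adds up for each miRNA, and the deposited table built on it, held values that did not come from the named miRNA's own probes. The software total exceeded the name's own probes for 60 of the 191 names with a total on the NT array, 63 of 189 on that of miR-195 and 46 of 139 on that of miR-497, and in all but 1 of these cases, on the miR-195 array, the excess was within 1% of the total of the detected name before it in alphabetical order. Among the members this touched miR-320a on the miR-497 array only. On the miR-497 array the software total of miR-320a was 166 units, although its own probes above 3 times their error summed to 58.7 units. The excess of 107.564 units matched the total of hsa-miR-32, 107.563 units, the detected name just before it. In the deposited log2 values miR-320a differed by -0.29 between the miR-497 and NT arrays, and by -1.79 from its own probes alone. For miR-320b, miR-320c and miR-320d the deposited differences between these arrays, -1.39, -1.46 and -1.36, equalled those of their own probes. After scaling, the software totals placed miR-320a at 1.36 against NT and 1.20 against miR-195, beyond 2-fold, whereas the sum of its own spots gave -0.11 and -0.27. The total of miR-484 was 10.9 units on the NT array, 11.7 after miR-195 and 0.1, the value for undetected names, after miR-497. The total of miR-486-3p, the next detected name, exceeded its own probes by 10.9 units on the NT array and by 11.7 on the miR-195 array.

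Other miRNAs that bypass a step of the canonical route were read beside the share of all 851 human names that was detected, 19.7% on the NT array, 17.98% after miR-195 and 14.2% after miR-497. Of 12 mirtron names on the array, only hsa-miR-1225-5p, whose mirtron status is disputed, was detected on any array, and it was on all 3. It read 201 units on the NT array, 550 after miR-195 and 132 after miR-497. Its scaled log2 difference from the NT array was 1.54 (spot SD 0.094) for miR-195 and 1.05 (spot SD 0.11) for miR-497, both past 2-fold, unlike any member. In these comparisons 4 of 147 and 4 of 118 miRNAs were at least 2-fold higher, and the others among them were not on the mirtron list. A link between such a rise and the processing route was not tested. miR-451, the Dicer-independent miRNA of red blood cells, read 10.4, 11.1 and 4.01 units and was detected on none.

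For the members detected on every array, the miRNAs with the most similar pattern were sought among 117 names by the distance between their pairs of scaled differences from the NT array. For miR-320a the nearest were miR-30e (distance 0.089 log2 units), miR-194 and miR-532-5p. The nearest to miR-320b were miR-96 (0.012), miR-582-5p and miR-483-3p. For miR-320c they were miR-425 (0.011), miR-200a and let-7i, and for miR-320d miR-454 (0.0062), miR-29c and miR-96. For every member these distances lay below its own spot SD in both differences, so the order of neighbours is not resolved. With 2 differences per miRNA that share the NT array, such likeness is a description of these arrays.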

How the data were processed

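RNA from 3 Ago2-IP fractions of Hep G2 cells, 1 per group, was read on 3 arrays of 1 slide. The deposited scanner files hold spot intensity on a linear scale, background-subtracted by Agilent Feature Extraction 10.7.1.1 and not scaled between arrays, per the file headers. The deposited table of log2 values equals the log2 of the software total per miRNA, with a floor of 0, for the members. Here the intensity was averaged over spots without an outlier flag, summed over the 2 probes of a name (8 spots each on the array), divided by the array's 75th percentile over the 183 probes detected on all arrays, and converted to log2. Leaving out outlier spots narrows the spot SD. No member spot was saturated. Differences use human miRNAs detected on both arrays, without the transfected miRNAs and their passenger strands, and a fixed size of 2-fold. As every group held a single array, nothing was tested, and precision is limited by the number of arrays. The script was tested on simulated data. Normexp correction used limma 3.58.1 with an offset of 50 units added to every spot, and folds used RNAfold of ViennaRNA 2.7.2. The file headers name hg19; coordinates are those of RefSeq GRCh38.p14.

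All 5 members were named whatever their values, with 3 neighbours each, 12 mirtron names, miR-451 and the markers. The members and lists were chosen with earlier results of these data known; miR-32 and miR-486-3p were named after their values were seen. Alternatives covered scaling, background, summary, spot filter, detection rule, dim miRNAs, the deposited table and the fold threshold.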

Additional observations from a re-analysis of the deposited data

How the results depend on the processing

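The members detected numbered 5, 5 and 4 on the NT, miR-195 and miR-497 arrays under the alternatives run for this count. The exception was 4 on the miR-195 array if no used spot may be at background. For miR-195 against NT, the members' median of 0.28 was -0.26 when scaled to the 75th percentile of all non-control probes, 0.065 after quantile normalization, 0.53 when scaled to the spike-ins, 0.16 from the deposited table, and its distance from the median of all miRNAs was 0.18 instead of 0.29 with the normexp background. For miR-497 against NT, the median of 0.19 was -1.19 with the percentile over all probes, -1.46 without scaling, -0.064 after quantile normalization, -1.11 with the spike-ins and -1.38 from the deposited table. The members past 2-fold then numbered 4, 4 and 4 with the percentile over all probes, no scaling and spike-ins, 3 in the deposited table and 1 with the software totals, instead of 0. The distance of 0.16 was -0.27 with normexp and 0.032 among the miRNAs above the median signal. For miR-497 against miR-195, the median of -0.08 was -0.92 with the percentile over all probes, 0.043 with median scaling, -1.64 without scaling, -1.63 with spike-ins and -1.56 in the deposited table. Members past 2-fold numbered 1, 4 and 4 under the same 3 settings. Of all 117 miRNAs, 17, 114 and 114 were 2-fold lower and 0 higher. The deposited table had 3, with 105 of all 135 lower and 11 higher. The software totals had 1, with 17 of all 117 higher and 0 lower. The distance of -0.10 was -0.54 with normexp. A single factor per array moves every miRNA alike, and the software total of miR-320a holds the excess above. The normexp values hold an added offset of 50 units per spot, and their cause was not tested. With the report's processing, 0 members passed 1.5-fold in each comparison. Of 147, 118 and 117 miRNAs, 6, 5 and 3 were that much higher and 6, 2 and 0 lower. On the miR-497 array, normexp turned the sign of miR-320a, from -0.11 to 0.33 against NT and from -0.27 to 0.19 against miR-195. The median of all miRNAs rose from 0.03 and 0.02 to 0.46, and miR-320a lay below it in both comparisons with either background. With the software totals and in the deposited table, which hold the excess, miR-320a lay above it. No paired analysis was possible with 1 array per group. Signal over background limited miR-484, and the lack of replicate arrays limits every difference: the spread between cultures and immunoprecipitations is unknown here.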
